A study of Mus musculus with 55 samples.

Results

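A total of 316 genes stood low in common myeloid progenitors (CMPs), granulocyte-macrophage progenitors (GMPs) and megakaryocyte-erythroid progenitors (MEPs) of libraries labelled Tet2-/- relative to WT. They were chosen on the counts themselves. Counts were scaled to 1000000 per library (CPM). A gene was taken when, in each of the 3 populations, its WT mean was at least 2 CPM, every library labelled Tet2-/- lay below every WT library, and the mean under the Tet2-/- label was at most 0.5 of the WT mean. Immediate early genes of the Fos, Jun, Egr, Nr4a, Ier and Klf families and Nnt were left out by name, which removed Jun, Klf6 and Nnt. The 316 members came from 55421 genes, of which 10179 reached the WT level in the 3 populations (below, expressed genes). Because the values of CMPs, GMPs and MEPs chose the members, those values are described without a test. The same rule with the labels exchanged and no gene left out was met by 6 genes (Cd1d2, Gm45104, Gm5586, Nnt, Rps3a2 and Rps3a3). Nnt, a mitochondrial transhydrogenase known to differ between C57BL/6 substrains, has 2 entries in the table, ENSMUSG00000025453 and ENSMUSG00000116207. The first was low under the Tet2-/- label, with means of 5.253 against 57.97 CPM in CMPs, 11.4 against 118.5 CPM in GMPs and 5.137 against 31.64 CPM in MEPs. The second was at 0 in all WT libraries of these populations and had means of 40.2, 79.07 and 22.23 CPM under the label. Outside them it had counts in 0 of 4 ST-HSC, 2 of 4 LT-HSC and 2 of 4 CLP libraries labelled Tet2-/-, and in 1 WT library, CLP replicate 4. It thus followed the label in the populations the rule used and not in the others, and its part in the members' values was not tested.

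TET2 is a dioxygenase that oxidizes 5-methylcytosine in DNA. CMPs give rise to GMPs, which make granulocytes and monocytes, and to MEPs, which make platelets and red cells. Long-term and short-term hematopoietic stem cells (LT-HSCs and ST-HSCs) stand above them, and common lymphoid progenitors (CLPs) lead to lymphocytes. Stem cells are known for low mitochondrial activity and a low rate of protein synthesis, and dividing progenitors for more of both.

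The first set of 46 libraries came from C57BL/6 mice and holds 4 libraries per genotype and population, except 3 of WT LT-HSCs and 3 of WT ST-HSCs. The label Tet2-/- stands for Tet2 f/f; Mx1-Cre mice that were given 5 doses of poly(I:C) from 4 weeks of age and were killed 16 weeks after induction. Mx1-Cre is switched on by interferon and is not restricted to blood cells. Whether the sequenced WT mice received poly(I:C) is not given in the sources used here. For a flow cytometry experiment, the study dates the analysis of all mice from a poly(I:C) injection. The labels number the replicates without naming the mouse behind a number, so p-values measure the spread between these libraries, which may be in part technical. Sorted from bone marrow were CMPs, GMPs and MEPs (lineage- cKit+ Sca1- cells separated by CD34 and CD16/32), LT-HSCs and ST-HSCs (LSK cells that were CD48- and either CD150+ or CD150-) and CLPs (cKit+ cells with intermediate Sca1 and with CD127). The labels give 200 sorted cells, and the study's methods state a larger number per group. They were made into full-length mRNA libraries with a SMART-seq kit. A second set of 9 LT-HSC libraries, 3 per group, was labelled WT, Sting-/- and Tet2;Sting DKO. The label Sting-/- stands for mice lacking Sting. Tet2;Sting DKO stands for mice lacking both genes, with Tet2 f/f, Mx1-Cre and poly(I:C) on the Sting-/- background. Sting counts did not follow these labels, as given below.

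Tet2 itself did not separate the labels in CMPs, GMPs, MEPs or stem cells. In CMPs it stood at 24.76, 27.91, 19.46 and 21.06 CPM in WT and at 27.81, 6.728, 15.69 and 20.17 CPM under the Tet2-/- label. In GMPs the WT libraries held 41.17, 36.64, 42.54 and 45.14 CPM and the libraries labelled Tet2-/- held 63.98, 52.75, 42.31 and 43.54 CPM. In CLPs every library labelled Tet2-/- (16.09 to 78.46 CPM) lay above every WT library (1.598 to 15.61 CPM), and in the other 5 populations the labels overlapped. A count summed over a whole gene need not fall when an exon is deleted, so these values do not check the genotype, and groups are named by their labels. Depth ran from 50458473 to 102148079 counts per library in the first set and from 26776517 to 78682096 in the second. The CLP libraries stood apart from their label: summed markers of B cells ran from 103800 to 159400 CPM in WT CLPs and from 1072 to 99000 CPM in CLPs labelled Tet2-/-, and summed neutrophil markers from 2.781 to 13080 CPM in the latter. In bulk samples, fewer cells of a type and less RNA per cell cannot be told apart.

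By column totals, the members as a group were high in WT CMPs, GMPs and MEPs and lower elsewhere. Their summed level was 24734 to 27456 CPM in WT CMPs, 25839 to 33585 CPM in WT GMPs and 24118 to 24630 CPM in WT MEPs. The libraries labelled Tet2-/- held 6069 to 7870 CPM in CMPs, 7132 to 7486 CPM in GMPs and 4628 to 7174 CPM in MEPs. In LT-HSCs the sum was 7505 to 8312 CPM in WT and 5885 to 8740 CPM under the Tet2-/- label. The myeloid progenitors labelled Tet2-/- thus lay between 4628 and 7870 CPM, where the LT-HSCs of both labels lay between 5885 and 8740 CPM. ST-HSCs held 9897 to 10938 CPM in WT and 6797 to 9016 CPM under the Tet2-/- label, without overlap. Most of that difference lay in 28 early response genes, described below, and the largest part of theirs in Cd69 alone. The other 288 members held 5911 to 6620 CPM in WT and 4921 to 6824 CPM under the label, with overlap. Mitochondrial transcripts took 8.73% to 9.02% of counts in WT ST-HSCs and 10% to 13.1% under the label, also without overlap, and their part in the ST-HSC values was not tested. CLPs held 13102 to 20416 CPM in WT and 10901 to 17912 CPM under the Tet2-/- label, with overlap. With TMM scaling, which the test uses, the sums were 22804 to 35274 CPM in WT CLPs and 10071 to 23711 CPM under the label. WT GMPs then held 22961 to 31407 CPM, so under that scaling WT CLPs overlapped them.

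**Figure D1:**
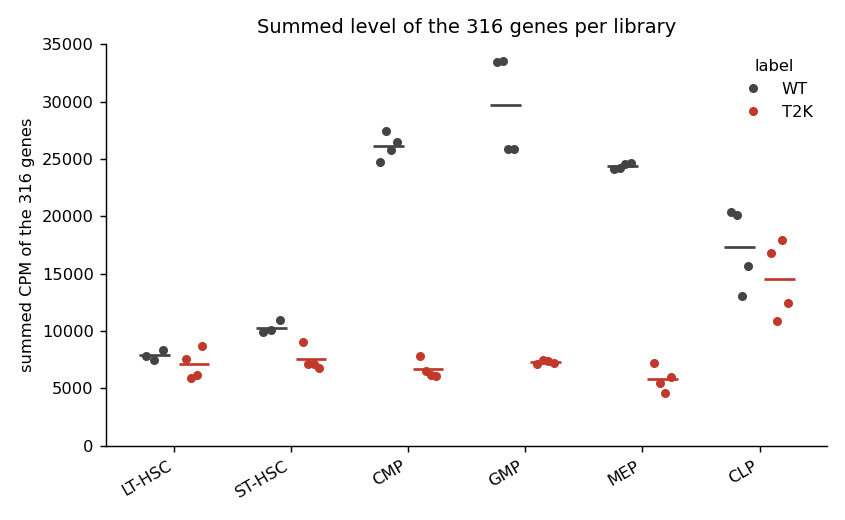
Summed CPM of the 316 members in each library of the first set, by population; each point is 1 library, bars are means, and the colour gives the genotype label (T2K, Tet2-/-). WT CMPs, GMPs and MEPs lie between 24118 and 33585 CPM and those labelled Tet2-/- between 4628 and 7870 CPM. The rule requires such a gap in each of these populations. LT-HSCs of both labels lie between 5885 and 8740 CPM.

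The median member gave a like order. Its WT level was 11.54 CPM in LT-HSCs, 12.05 CPM in ST-HSCs, 44.68 CPM in CMPs, 49.08 CPM in GMPs, 40.72 CPM in MEPs and 17.43 CPM in CLPs. Under the Tet2-/- label it was 11.69, 11.28, 10.86, 11.56, 8.73 and 21.81 CPM in the same populations. Among WT populations 144 members were highest in GMPs, 91 in MEPs, 47 in CMPs, 23 in CLPs, 8 in ST-HSCs and 3 in LT-HSCs. Under the Tet2-/- label 178 members were highest in CLPs.

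The members were also set beside the 14 stem cell libraries of both labels. Every WT CMP library stood above every one of these libraries for 236 of 316 members. The count was 236 in GMPs and 214 in MEPs. Of the 9863 other expressed genes 9.8%, 18.5% and 11.9% did so in CMPs, GMPs and MEPs, and since the WT values of these populations chose the members, nothing is read from the difference. Under the Tet2-/- label 10, 49 and 11 members stood above every stem cell library in CMPs, GMPs and MEPs. In the same order 9, 29 and 33 stood below every one, for which no share of other genes was counted. The mean of 277, 214 and 246 members lay within the range of the stem cell libraries. Of the other expressed genes 6.89%, 18.8% and 11% stood above every stem cell library under the label, and the mean of 78.9%, 56.4% and 66.8% lay within their range. The rule used these values too. The median ratio of WT to the Tet2-/- label was 4.172 in CMPs, 4.296 in GMPs and 4.201 in MEPs. The median SD over the mean between WT libraries was 16.12% in CMPs, 21.54% in GMPs and 14.48% in MEPs, and 27.49%, 21.17% and 31.64% under the Tet2-/- label.

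**Figure D2:**
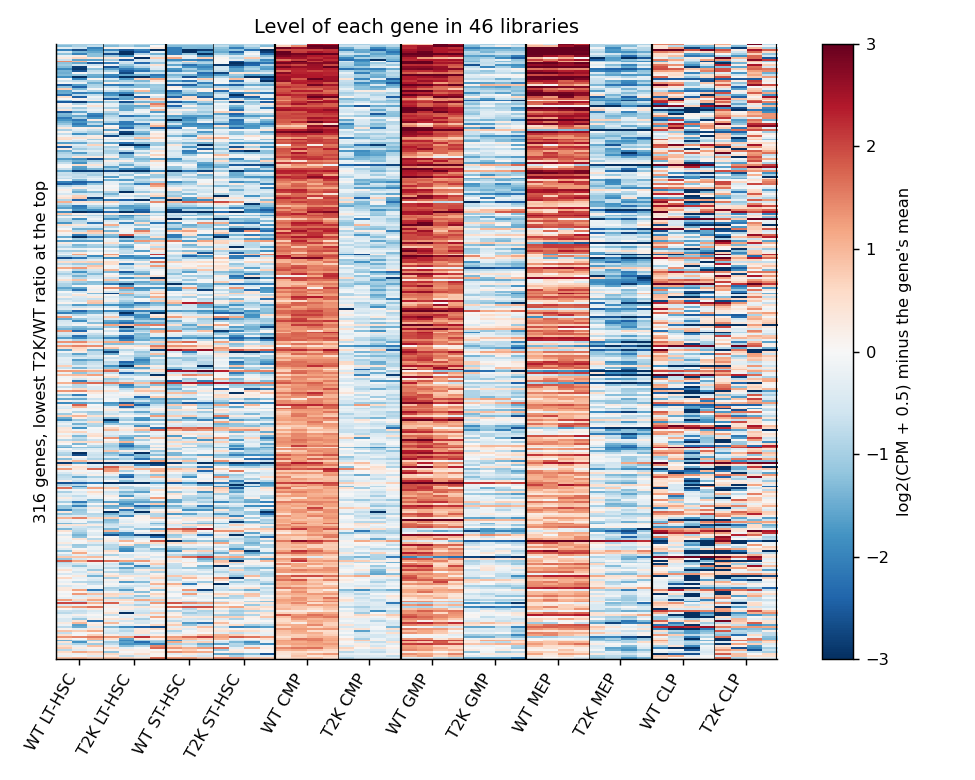
Level of each of the 316 members (rows) in the 46 libraries of the first set (columns, T2K meaning the label Tet2-/-), as log2(CPM + 0.5) minus the gene's mean over libraries. WT CMPs, GMPs and MEPs are high for most members. The same populations labelled Tet2-/- are lower, as the rule requires, and CLPs vary by library.

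Where edgeR calls required 2-fold and an adjusted p below 0.05, 281 members were called lower in CMPs (3.92% of all genes tested were), 299 in GMPs (4.06%) and 280 in MEPs (4.21%). These counts follow from the rule. At its edge, the last members inside were Adpgk, with ratios of the Tet2-/- label to WT of 0.4887, 0.1626 and 0.4997 in CMPs, GMPs and MEPs, Hhex with 0.4457, 0.2588 and 0.4989, and Fam174b with 0.4985, 0.1986 and 0.4219. Just outside lay Aig1 with 0.4102, 0.4199 and 0.5002, Tpgs2 with 0.5013, 0.3585 and 0.3188, and Cox11, a cytochrome oxidase assembly factor, with 0.2526, 0.5041 and 0.1546.

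The members were sorted by known function after they had been seen. A total of 185 fell into 12 groups, 104 other protein-coding genes stayed ungrouped, 21 were annotated as pseudogenes and 6 as noncoding. In each group below, every WT library of CMPs, GMPs and MEPs stood above every library labelled Tet2-/-, as the rule requires of each member, and the sizes are what is described.

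Mitochondrial genes made up 4 of the 12 groups. The share of mitochondrial genes among all expressed genes was not counted, so nothing is read from that number. The ratio of the mean sums, WT over the Tet2-/- label, is given for each group. Cyc1 and Uqcrfs1 are catalytic subunits of the cytochrome bc1 complex, Cox5a is a subunit of cytochrome oxidase, and Cox18, Hccs, Sdhaf1, Ndufaf6, Atpaf1 and Atp23 help to assemble the respiratory complexes and ATP synthase. Together these 9 genes summed to 952.2 to 1059 CPM in WT CMPs and 122.7 to 212.3 CPM under the Tet2-/- label. The sums were 1352 to 1479 against 119.4 to 212.5 CPM in MEPs and 1005 to 1162 against 296.9 to 422.6 CPM in GMPs. As ratios this was 6.32 in CMPs, 9.13 in MEPs and 3.12 in GMPs. WT LT-HSCs held 100.6 to 121.8 CPM and LT-HSCs labelled Tet2-/- 70.27 to 118 CPM.

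Uqcrfs1, the Rieske iron-sulfur protein, stood at 443.4, 413.6, 437.8 and 426.2 CPM in WT MEPs and at 43.03, 26.85, 28.99 and 35.84 CPM under the Tet2-/- label. In CMPs it held 287.2, 278.7, 280.4 and 285.7 against 39.56, 31.98, 26.69 and 29.42 CPM. Cox5a held 380.2, 325.7, 336.2 and 382.7 CPM in WT MEPs and 44.23, 11.22, 7.862 and 23.13 CPM under the Tet2-/- label. In both genes the lowest WT library was several times the highest library labelled Tet2-/-. The WT LT-HSC libraries held 26.42, 24.43 and 15.25 CPM of Uqcrfs1 and 17.56, 7.156 and 7.314 CPM of Cox5a. Of their partners, members were 2 of 9 genes of the bc1 complex, 1 of 17 cytochrome oxidase subunits (Cox4 to Cox8 families), 0 of 37 complex I subunits and 0 of 18 ATP synthase genes, where 316 of 10179 expressed genes were members. The median log2 fold change of the complex I list was 0.27 in CMPs, -0.04 in GMPs and 0.13 in MEPs, with 0 of 36 tested genes called by edgeR in each.

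Import and iron-sulfur cluster genes formed a group of 11. Tomm20 and Tomm40 are the receptor and the channel of the outer membrane translocase, Iscu is the scaffold on which iron-sulfur clusters are built, Fdx1, Bola3 and Dnlz serve cluster assembly or the chaperone of the matrix, and Slc25a1, Slc25a32, Slc25a33 and Slc25a39 are inner membrane carriers. Summed over the 11, the ratios were 5.95 in CMPs, 4.96 in GMPs and 7.35 in MEPs. Tomm20 stood at 318.1, 276.6, 316.1 and 309.2 CPM in WT CMPs and at 62.79, 48.89, 33.12 and 45.76 CPM under the Tet2-/- label. Iscu held 92.64, 97.67, 65.77 and 72.65 CPM in WT GMPs and 3.946, 3.475, 4.587 and 2.723 CPM under the Tet2-/- label, one of the 10 lowest mean ratios. In WT LT-HSCs Iscu held 11.47, 14.82 and 5.164 CPM, above each of these GMP libraries labelled Tet2-/-. Of the translocase genes of both membranes (Tomm and Timm), 2 of 25 were members.

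The mitochondrial ribosome, its assembly and the mitochondrial tRNAs were represented by 13 genes, with ratios of 5.56, 5.51 and 5.66 in CMPs, GMPs and MEPs. They include 4 of 77 mitochondrial ribosomal proteins (Mrpl3, Mrps24, Mrps26 and Mrps30), the tRNA synthetases Cars2 and Yars2, the tRNA modification enzyme Mto1 and the release factor Mtrf1l. Mrps24 stood at 120.8, 131.6, 81.13 and 75.48 CPM in WT MEPs and at 4.894, 2.414, 2.33 and 3.011 CPM under the Tet2-/- label. Its WT LT-HSC libraries held 6.857, 3.411 and 2.943 CPM. The window around its start site (RefSeq, GRCm38.p6, 250 bases before to 50 after the start) is shown because Mrps24 had one of the 10 lowest ratios; the window of Chchd10, another of these, held 0 matches and is not printed. Capitals mark a TATA box (TATAAA) at position 70 and GC boxes (GGGCGG) at 198 and 204, searched on both strands and counted from the first base printed.
Mrps24 promoter, chr11:5707652-5707951, minus strand: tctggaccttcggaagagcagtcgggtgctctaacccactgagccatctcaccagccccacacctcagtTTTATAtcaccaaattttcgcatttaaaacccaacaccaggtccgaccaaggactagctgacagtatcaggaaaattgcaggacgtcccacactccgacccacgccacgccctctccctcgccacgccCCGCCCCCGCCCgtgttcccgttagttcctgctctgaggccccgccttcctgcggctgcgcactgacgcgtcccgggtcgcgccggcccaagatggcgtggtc

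A further 13 genes serve mitochondrial dynamics and metabolism, with ratios of 4.80, 5.78 and 5.64. Mff recruits the fission machinery, Rhot1 links mitochondria to motor proteins, Ppif is the cyclophilin of the permeability pore, and Acadl, Auh and Bckdhb act in the breakdown of fatty acids and branched-chain amino acids. Chchd10, a small protein of the intermembrane space, stood at 104.2, 58.41, 93.66 and 98.88 CPM in WT MEPs and at 3.388, 1.446, 2.087 and 2.909 CPM under the Tet2-/- label. In GMPs it held 34.99, 38.61, 32.63 and 34.67 against 1.757, 2.081, 2.066 and 1.931 CPM. WT LT-HSCs held 0.493 to 1.386 CPM, so that the MEP and GMP libraries labelled Tet2-/- lay just above the WT LT-HSC libraries for this gene. Transcripts of the mitochondrial genome, which are no members, took a larger share of counts under the Tet2-/- label: 7.85% to 8.37% against 5.94% to 6.57% in CMPs, and 4.74% to 5.09% against 3.64% to 4.6% in GMPs. In MEPs the shares were 8.96% to 9.74% and 6.85% to 9.18%, with overlap, and their part in the values above was not tested.

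The endoplasmic reticulum and Golgi group had 25 genes, with ratios of 4.35 in CMPs, 3.85 in GMPs and 4.28 in MEPs. Ddost and Tusc3 belong to the oligosaccharyltransferase, which adds sugars to new proteins, Tmed2 is a cargo receptor between the reticulum and the Golgi, Serp1 shields unfinished membrane proteins, and Xbp1 and Dnajc3 act in the unfolded protein response. Tmed2 stood at 1106, 1015, 682.8 and 694.1 CPM in WT GMPs and at 109.8, 121.8, 106.9 and 98.94 CPM under the Tet2-/- label. Ddost held 406.6, 397.5, 434 and 370.7 CPM in WT CMPs against 102.7, 71.26, 66.05 and 82.72 CPM. Serp1 held 716.3, 963.8, 788.2 and 761.5 CPM in WT GMPs against 225.9, 280.1, 213.6 and 267.6 CPM. The WT CLP libraries held 970.9 to 1766 CPM of Serp1, above all WT GMP libraries, and those labelled Tet2-/- held 527.8 to 1102 CPM. Xbp1, chosen after its values were seen like Uqcrfs1, Cox5a, Tomm20, Spi1, H2afx, Dyrk3 and Arpc3, held 119.9, 160, 138.3 and 130.3 CPM in WT GMPs against 20.07, 32.01, 12.04 and 15.87 CPM.

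The early response group holds 28 genes that are switched on soon after a signal or act as brakes on it. They include 3 of the 5 genes for NF-kB inhibitors (Nfkbia, Nfkbid and Nfkbiz), the stress transcription factors Atf3 and Ddit3, the phosphatases Dusp1, Dusp2 and Dusp5 that switch off MAP kinases, the activation antigen Cd69 and the chemokine Cxcl2. Their sum ran from 3632 to 4924 CPM in WT CMPs and from 769.1 to 1459 CPM under the Tet2-/- label. It was 2240 to 3127 against 509.8 to 756.6 CPM in GMPs and 2382 to 3052 against 504.1 to 1036 CPM in MEPs. In ST-HSCs it was 3276 to 5027 CPM in WT and 1872 to 2192 CPM under the Tet2-/- label, without overlap. Cd69 alone held the largest part of that difference. CLPs held 4506 to 6569 against 2110 to 4445 CPM, also without overlap, and LT-HSCs 1440 to 1927 against 1140 to 1459 CPM, with overlap. The group was put together after its members were known, so no test is given for it.

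Nfkbia encodes IkB-alpha, which holds NF-kB in the cytoplasm and is itself an NF-kB target. It stood at 1002, 1049, 967.4 and 966.3 CPM in WT MEPs and at 546.8, 398.2, 236.7 and 222.4 CPM under the Tet2-/- label. CMPs held 462.8, 661.2, 473.2 and 579.5 against 210.3, 234.9, 295 and 114.2 CPM. GMPs held 308.1, 278, 206.5 and 223.9 against 103.3, 101, 172.9 and 78.28 CPM. It was highest in WT CLPs, at 1449, 1730, 1433 and 1795 CPM. CLPs labelled Tet2-/- held 900.8, 673.9, 743.8 and 690.6 CPM, all below the WT libraries (log2 fold change -1.63, SE 0.29, adjusted p = 0.376 by edgeR). An exact permutation of the 8 libraries, two-sided, gave the lowest p it can, 0.0286. Dusp1, which dephosphorylates MAP kinases, held 1002, 931.9, 642.2 and 849.8 CPM in WT GMPs against 46.42, 56.69, 57.95 and 23.63 CPM under the Tet2-/- label. In LT-HSCs it held 109.7, 192.6 and 292.4 CPM in WT and 269.1, 230.8, 170.2 and 378.4 CPM under the label, so edgeR gave a log2 fold change of 0.46 with an SE of 0.36 (adjusted p = 0.998).

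The start-site windows of Nfkbia and Dusp1 are printed because the tests below turn on Nfkbia and because both had among the 10 highest WT CPM of all members. Capitals mark the motifs found: in Nfkbia an NF-kB site at position 222, a GC box at 243 and a TATA box at 270, and in Dusp1 a cAMP response element (TGACGTCA) at 108, an E-box (CACGTG) at 125 and GC boxes at 101, 116 and 203. A match is a run of letters and says nothing of binding.
Nfkbia promoter, chr12:55492598-55492897, minus strand, RefSeq, GRCm38.p6: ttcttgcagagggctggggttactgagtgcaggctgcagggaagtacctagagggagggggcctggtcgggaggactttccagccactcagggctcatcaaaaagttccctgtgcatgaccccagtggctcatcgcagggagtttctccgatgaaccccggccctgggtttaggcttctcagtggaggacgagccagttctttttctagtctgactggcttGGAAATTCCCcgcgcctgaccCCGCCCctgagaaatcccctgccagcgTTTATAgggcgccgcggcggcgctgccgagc
Dusp1 promoter, chr17:26508423-26508722, minus strand, RefSeq, GRCm38.p6: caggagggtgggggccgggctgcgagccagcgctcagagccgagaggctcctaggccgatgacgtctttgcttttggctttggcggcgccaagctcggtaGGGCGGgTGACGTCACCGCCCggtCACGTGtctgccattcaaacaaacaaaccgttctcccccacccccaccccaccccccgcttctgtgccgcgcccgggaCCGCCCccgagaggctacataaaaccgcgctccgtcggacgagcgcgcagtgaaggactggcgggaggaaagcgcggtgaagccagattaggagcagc

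Cd69, a lectin that appears on activated leukocytes, held 1336, 1913, 1080 and 1595 CPM in WT CMPs and 685.5, 287.1, 618.1 and 260.8 CPM under the Tet2-/- label. Atf3 held 49.36, 75.26, 70.57 and 57.54 against 15.67, 10.78, 15.48 and 9.684 CPM in CMPs. Ddit3, also called CHOP, held 115.3, 112.2, 107.1 and 123.4 against 36.88, 32.48, 43.24 and 46.76 CPM there. In all 3 genes the libraries of the labels were apart, as the rule requires. For the immediate early genes that the rule left out, the sum over 17 genes was 2255 to 3616 CPM in WT CMPs and 734 to 1494 CPM under the Tet2-/- label, 2192 to 3132 against 842 to 1714 CPM in GMPs, and 777 to 959 against 241 to 523 CPM in MEPs. The edgeR test called 7, 3 and 5 of them lower in CMPs, GMPs and MEPs, and their part in the members' values was not tested. A further list of 51 early response genes was made with earlier results of these data known. Members among them were 8: Atf3, Csrnp1, Ddit3, Dusp1, Dusp2, Dusp5, Nfkbia and Nfkbiz. With these members included, 17, 13 and 9 were called lower in CMPs, GMPs and MEPs. Without members, 10 of 40 tested genes were called lower in CMPs, 6 of 39 in GMPs and 4 of 36 in MEPs.

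**Figure D3:**
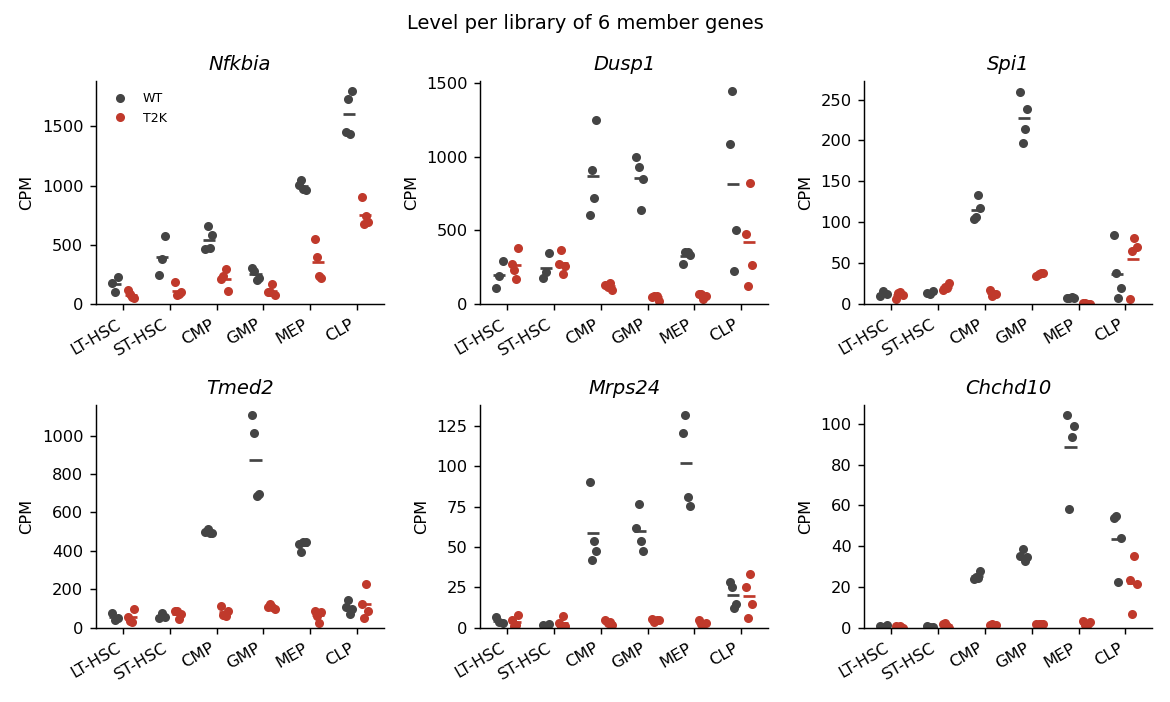
CPM per library of Nfkbia, Dusp1, Spi1, Tmed2, Mrps24 and Chchd10 by population, with group means as bars and T2K meaning the label Tet2-/-. Nfkbia is lower without overlap in ST-HSCs, CMPs, GMPs, MEPs and CLPs under the label, whereas the other 5 genes overlap in LT-HSCs and CLPs.

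Splicing and RNA processing contributed 21 genes, with ratios of 3.34 in CMPs, 5.28 in GMPs and 3.35 in MEPs. Srsf6, a splicing factor of the SR family, stood at 691, 722.2, 531.3 and 446.7 CPM in WT GMPs and at 107.8, 104, 87.52 and 73.11 CPM under the Tet2-/- label. It was high in stem cells too, at 248.2, 209.6 and 214.4 CPM in WT LT-HSCs, above each GMP library labelled Tet2-/-. Of 19 genes of the SR, Tra2 and Clk families it was the 1 member. Translation, ribosome assembly and tRNA contributed 15 genes, with ratios of 4.49, 5.07 and 4.31. Eif3f, a subunit of initiation factor 3, held 713.1, 592.9, 326.9 and 417.3 CPM in WT GMPs against 50.93, 77.7, 52.82 and 33.6 CPM. Srm, which makes spermidine, held 323.3, 292.8, 423.7 and 350.5 CPM in WT CMPs against 34.66, 52.52, 53.83 and 37.61 CPM. WT LT-HSC libraries held 100.2 to 110.5 CPM of Eif3f and 37.15 to 45.62 CPM of Srm, so that Srm in CMPs labelled Tet2-/- overlapped the stem cell level.

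Ubiquitin enzymes and adaptors were 13, with ratios of 3.04, 4.73 and 3.04, and 3 of the 32 ubiquitin conjugating enzymes listed were members: Ube2d1, Ube2j2, which works at the endoplasmic reticulum, and Cdc34, which serves cullin ligases. Ube2d1 held 40.62, 41.99, 33.07 and 26.84 CPM in WT GMPs and 7.028, 8.411, 8.657 and 6.975 CPM under the Tet2-/- label. The endosome, lysosome and autophagy group had 16 genes and ratios of 3.24, 2.89 and 3.61. Its member with the lowest ratio, Map1lc3a, an LC3 protein of the autophagosome, held 30.48, 28.95, 13.95 and 13.04 CPM in WT GMPs against 0.7129, 1.496, 0.7827 and 1.042 CPM. DNA repair had 6 genes (Alkbh2, Donson, Nbn, Nsmce3, Ung and Xpa) with ratios of 3.52, 3.53 and 4.21.

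Chromatin and transcription contributed 15 genes, with ratios of 4.13, 4.22 and 4.73. H1f0, a linker histone of slowly dividing cells, held 39.88, 72.86, 56.51 and 58.8 CPM in WT CMPs and 9.251, 12.32, 5.436 and 8.309 CPM under the Tet2-/- label. It was the 1 member on a list of 12 histone genes that leaves out the histone variants H2afx and H2afv, both members. Spi1, which encodes the myeloid factor PU.1, held 259.7, 196.5, 214.3 and 239 CPM in WT GMPs against 34.45, 37.05, 38.45 and 37.5 CPM, and 104.4, 106.2, 133 and 117.1 against 17.56, 10.42, 12.83 and 12.67 CPM in CMPs. In ST-HSCs the order was the other way round, with 13.26, 12.12 and 16.2 CPM in WT and 17.77, 21.23, 19.24 and 26.13 CPM under the Tet2-/- label (log2 fold change 0.68, SE 0.30, edgeR adjusted p = 0.841). H2afx, the histone variant that is phosphorylated at DNA breaks, held 145.6, 114.1, 240.2 and 268.5 CPM in WT CMPs against 33.61, 27.96, 19.01 and 30.14 CPM.

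The 10 members with the highest WT level were Cd69, Dusp1, Tmed2, Nfkbia, Ddost, Srsf6, Serp1, Eif3f, Fkbp4 and Srm. Fkbp4, a co-chaperone of Hsp90 with steroid receptors, held 566.4, 591.5, 526 and 536 CPM in WT GMPs and 237, 251.7, 277.2 and 267.3 CPM under the Tet2-/- label. The 10 members with the lowest mean ratios were Scand1, Zfp771, Nenf, Chchd10, Mrps24, 0610012G03Rik, Iscu, Lysmd2, Znhit2 and Map1lc3a. Nenf, a small secreted protein that binds heme, held 52.45, 38.75, 47.59 and 48.55 CPM in WT MEPs and 3.266, 0.5783, 2.373 and 1.781 CPM under the Tet2-/- label. Scand1, a SCAN domain protein without zinc fingers, was at 0 in all WT LT-HSC and ST-HSC libraries. WT CMPs held 0.5541, 0.1662, 5.118 and 4.658 CPM, and CMPs labelled Tet2-/- held 0.03916, 0, 0.07006 and 0.04953 CPM. Zfp771, a zinc finger gene, showed a like split among WT libraries, with 1.536 and 2.72 CPM in CMP replicates 2 and 3 and 10.04 and 9.03 CPM in replicates 4 and 5. H2afx, above, also had its lower WT CMP values in replicates 2 and 3.

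A split between replicates 2 and 3 and replicates 4 and 5, noticed after the values were seen, was present in most members in WT GMPs. Summed members stood at 33500 and 33585 CPM in WT GMP replicates 2 and 3 and at 25845 and 25839 CPM in replicates 4 and 5. For 193 members both of the first pair lay above both of the second and for 14 below, together 65.5% of members against 30.8% of other expressed genes. In the other 5 groups of CMPs, GMPs and MEPs the share of members so split was 31.6% to 48.7%, and that of other expressed genes 30% to 43.6%. The labels name no batch. Within replicates 2 and 3 the median ratio of WT to the Tet2-/- label was 3.742 in CMPs, 4.719 in GMPs and 3.953 in MEPs, and within replicates 4 and 5 it was 4.558, 3.76 and 4.594.

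**Figure D4:**
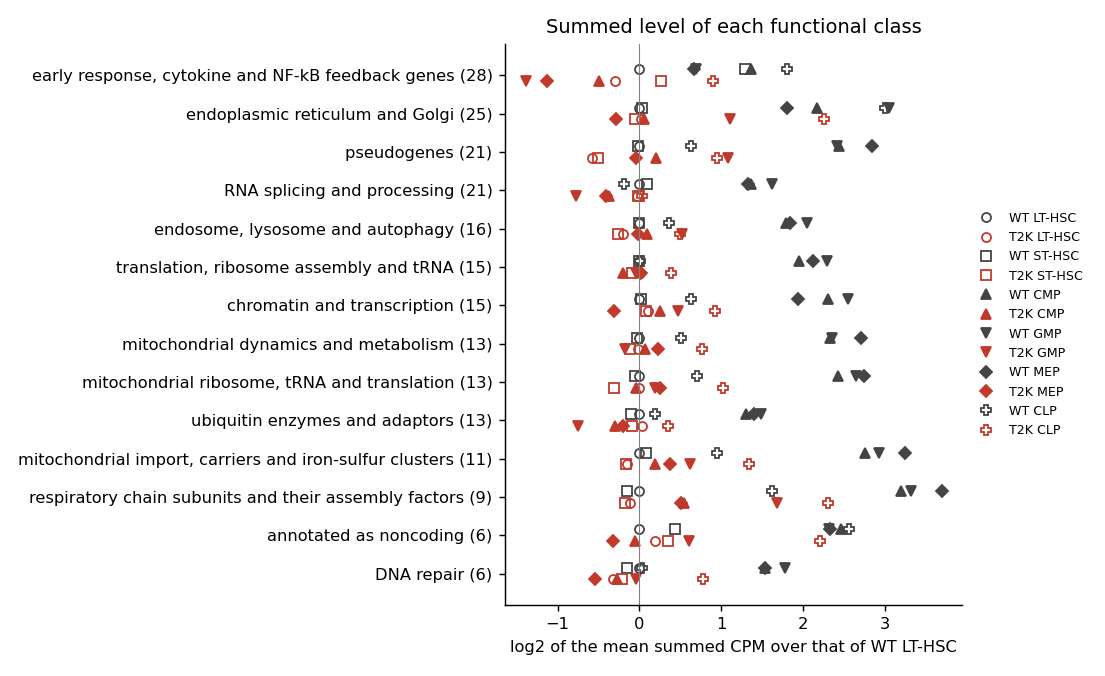
Mean summed CPM of each functional group, on a log2 scale relative to WT LT-HSCs, with the number of genes in brackets and T2K meaning the label Tet2-/-. Dark filled symbols (WT CMPs, GMPs and MEPs) lie to the right of the red filled ones (the same populations labelled Tet2-/-) in all groups.

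Markers of other cell types were looked at in the same libraries. Summed erythroid markers (14 genes, among 13 tested 4 called higher and 1 lower by edgeR) were 1147 to 2778 CPM in WT CMPs and 4343 to 8489 CPM under the Tet2-/- label. In GMPs they were 128.6 to 229.6 and 156.9 to 246 CPM with 0 called, and in MEPs 17260 to 19590 and 18800 to 25160 CPM with 3 called lower. No member was on this list, and its part in the members' values was not tested. Neutrophil markers overlapped between labels, with 3944 to 5821 and 3711 to 4157 CPM in CMPs and 35120 to 46130 and 37670 to 45710 CPM in GMPs. B cell markers were lower under the Tet2-/- label without overlap in CMPs (174.4 to 265.1 CPM in WT and 112.9 to 133 CPM under the label) and in GMPs (142.4 to 191.3 and 123.2 to 137.4 CPM). In MEPs they overlapped (7.485 to 21.62 and 7.57 to 21.6 CPM), and their part in the members' values was not tested.

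LT-HSCs, ST-HSCs and CLPs of the first set took no part in the rule and could be tested, although their libraries carry the same replicate numbers. In LT-HSCs 312 members passed the filter on low counts and edgeR called 0 lower and 0 higher (0% and 0.0245% of 16351 genes). At an unadjusted p of 0.05 and 2-fold, 9 were lower and 6 higher, against 1.08% and 2.27% of all genes. DESeq2 called 2 members lower and 3 higher, among 80 genes lower and 153 higher. Its share over all genes tested is not given, so nothing is read from these counts. Every library labelled Tet2-/- lay below every WT library for 17 of 316 members (5.38%, expressed genes 6.13%) and above for 8 (2.53%, expressed genes 2.03%). The median log2 fold change of members was -0.02, that of all genes 0.06. With fewer libraries more genes of any kind do not overlap. The 17 became 42 without WT replicate 3 (13.3%, expressed genes 12%), 31 without replicate 5 under the Tet2-/- label (9.81% and 8.46%), 28 without WT replicate 5 (8.86% and 9.8%) and 27 without replicate 2 under the label (8.54% and 10.2%). Dyrk3, a kinase that dissolves condensates, had the smallest adjusted p, a printed value that Ddit3 below shares. The WT libraries held 40.33, 45.37 and 26.96 CPM of Dyrk3 and those labelled Tet2-/- 16.71, 10.31, 15.06 and 11.47 CPM. Its log2 fold change was -1.41 (SE 0.33, edgeR adjusted p = 0.445).

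The lowest log2 fold changes in LT-HSCs belonged to Ung, which removes uracil from DNA, Nfkbid, Atf3, Tbc1d10a and Csrp1. Nfkbid, a nuclear IkB protein, held 56.26, 58.17 and 70.28 CPM in WT and 31.57, 17.33, 14.76 and 1.982 CPM under the Tet2-/- label (log2 fold change -1.84, SE 0.69, edgeR adjusted p = 0.823). Atf3 held 23.25, 22.87 and 39.79 against 13, 8.229, 4.226 and 7.664 CPM (-1.74, SE 0.42, adjusted p = 0.452), and Ddit3 135.1, 160.4 and 198.5 against 74.62, 75.74, 81.05 and 85.03 CPM (-0.98, SE 0.21, adjusted p = 0.445). In all 3 the labels did not overlap. Peli1, a ubiquitin ligase of innate immune signalling, went the other way, with 20.57, 15.35 and 14.9 CPM in WT and 31.8, 21.21, 33.06 and 59.55 CPM under the label (1.17, SE 0.39, adjusted p = 0.743). The highest log2 fold changes were those of Gm9856, 2410022M11Rik, Fbxl15, Malsu1 and Rsrp1, most of them at low counts. Malsu1, an assembly factor of the mitochondrial ribosome, held 1.209, 0.7862 and 1.061 CPM in WT and 5.551, 5.264, 2.902 and 2.987 CPM under the label (2.07, SE 0.75, adjusted p = 0.779), and here too the libraries did not overlap.

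In ST-HSCs edgeR again called 0 of 312 tested members (0% of 16212 genes lower and 0.0185% higher). At the unadjusted p 13 were lower and 2 higher, against 1.57% and 2.08% of all genes. DESeq2 called 10 members lower and 2 higher, among 133 genes lower and 199 higher, again without a share over all genes tested. The labels did not overlap, with the Tet2-/- label lower, for 30 of 316 members (9.49%, expressed genes 7.1%) and higher for 6 (1.9%, expressed genes 2.16%). Without replicate 2 under the Tet2-/- label the count of 30 became 55 (17.4%, expressed genes 11.8%). Of the 30, 12 were among the 28 early response genes. Cd69 held 1406, 1575 and 2447 CPM in WT and 527, 528.5, 731.3 and 737.1 CPM under the Tet2-/- label (log2 fold change -1.44, SE 0.25, edgeR adjusted p = 0.221). Nfkbia held 247.3, 378.5 and 573.9 against 185.4, 74.8, 87.85 and 98.77 CPM (-1.79, SE 0.37, adjusted p = 0.314), and Nfkbiz 179.7, 144 and 169.6 against 96.9, 75.41, 73.46 and 65.32 CPM (-1.01, SE 0.19, adjusted p = 0.314). Atf3 had the largest change of these, with 43.93, 115 and 93.76 against 24.45, 10.61, 8.986 and 14.94 CPM (-2.46, SE 0.43, adjusted p = 0.221). The smallest adjusted p of a member was that of Arpc3, a subunit of the actin nucleator Arp2/3, with 412.3, 364.8 and 349.4 against 172.3, 201.4, 163.9 and 157.6 CPM (-1.03, SE 0.16, adjusted p = 0.205). An exact permutation of libraries, two-sided, gave 0.0286 for Cd69, Nfkbiz, Atf3 and Arpc3, its lowest value, and 0.0571 for Nfkbia. The lowest log2 fold changes were those of Trp53i13, Dusp28, Atf3, 2410004B18Rik and Donson, and the highest those of Tmem192, Mgat4b, Znhit2, 2410022M11Rik and Sac3d1. Dusp28 went from -2.47 to 0.68 without WT replicate 3, and Sac3d1 from 1.59 to -0.04 with a replicate block. Tmem192, a lysosomal membrane protein, held 1.02, 3.138 and 2.687 CPM in WT and 10.5, 9.246, 12.74 and 4.341 CPM under the label (2.08, SE 0.65, adjusted p = 0.560).

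In ST-HSCs the median log2 fold change was -0.60 for the early response group and 0.04 for all genes. The other 11 functional groups had medians from -0.22 (respiratory chain) to 0.27 (chromatin and transcription), pseudogenes -0.30 and noncoding genes 0.26. In LT-HSCs the early response group had -0.29, the other 11 groups ran from -0.44 (DNA repair) to 0.34 (ubiquitin enzymes), pseudogenes had -0.38, the 6 noncoding genes 0.92 and all genes 0.06. Low medians were not particular to the members: the 40 tested genes of a list of early response genes that are no members had medians of -0.50 in ST-HSCs and -0.41 in LT-HSCs, with 0 called in either. The immediate early genes left out of the rule did not split the stem cells: their sum was 3087 to 4032 CPM in WT ST-HSCs and 2239 to 4287 CPM under the Tet2-/- label, and 3212 to 3982 and 2443 to 5004 CPM in LT-HSCs.

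In CLPs 312 members were tested and 0 were called (0% of 13060 genes lower and 0.00766% higher). A fit of all libraries of the table at once called 21 members lower and 8 higher, with 475 genes lower and 1002 higher. No share over all genes tested is given for it, so nothing is read from these counts. At the unadjusted p 18 were lower and 1 higher, against 1.65% and 1.33% of all genes. DESeq2 called 7 members lower and 0 higher, among 177 genes lower and 295 higher, likewise without a share. The Tet2-/- label lay below WT without overlap for 7 members (2.22%, expressed genes 0.481%), namely Nfkbia, Ddit3, H1f0, Creld2, Rgcc, Tmem134 and Ap3s1-ps2. It lay above for 10 (3.16%, expressed genes 7.35%), among them Cox5a, Atpaf1 and Atp23 of the respiratory chain group. The 7 became 14 with TMM (expressed genes 1.65%) and 12 with RLE scaling of CPM (1.74%). They became 15 without replicate 2 (0.982%) and 14 without replicate 4 under the Tet2-/- label (1.03%), and 13 without WT replicate 4 (1.03%). Ddit3 held 87.8, 82.99, 95.57 and 80.71 CPM in WT and 1.9, 19.58, 42.86 and 42.07 CPM under the label (log2 fold change -2.10, SE 0.83, edgeR adjusted p = 1.0). The lowest log2 fold changes were those of Pcgf6, Cxcl2, Creld2, Rgcc and Peli1, and the highest those of Gm9856, Mtrf1l, 3010003L21Rik, Mrps30 and B3galt6. Creld2, which is induced by stress of the endoplasmic reticulum, held 405.9, 841.2, 643.2 and 589.4 CPM in WT and 31.94, 147.4, 315.5 and 145.6 CPM under the label (-2.41, SE 0.71, edgeR adjusted p = 0.977). Rgcc, a regulator of the cell cycle, held 306, 264.7, 229.5 and 214.9 against 28.08, 68.21, 71.1 and 109.9 CPM (-2.32, SE 0.48, edgeR adjusted p = 0.479). Cox5a held 105.4, 50.23, 67.44 and 82.35 CPM in WT and 208.7, 166.1, 131.7 and 140.4 CPM under the label, and edgeR gave a log2 fold change of 0.56 with an SE of 0.24 (adjusted p = 1.0).

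The direction in CLPs depends on scaling. With column totals the median log2 difference of members was 0.27 and that of expressed genes 0.56, and with TMM scaling, which the test uses, -0.20 and 0.08. A scaling of libraries shifts members and expressed genes alike, so it does not bear on the difference between them. The median edgeR log2 fold change of members, -0.15, was -0.45 without replicate 4 under the Tet2-/- label and -0.31 without WT replicate 4, but 0.05 without replicate 3 under the label, 0.01 without WT replicate 3 and 0 without WT replicate 2, so its sign rests on single libraries. The median log2 fold change was -1.48 for the early response group and -0.50 for the endoplasmic reticulum and Golgi group. It ran from -0.28 to 0.25 in the other 10 groups. Low medians were not particular to the members here either. The 38 tested early response genes that are no members had -0.97, with 0 called. The immediate early genes left out of the rule had -1.32, also with 0 called. The immediate early genes left out of the rule summed to 11180 to 13586 CPM in WT CLPs and 2854 to 7674 CPM under the Tet2-/- label. B cell markers were lower in all CLP libraries labelled Tet2-/- than in WT, as given above, and 12.5%, 7.82%, 3.11% and 4.23% of counts were mitochondrial in them against 2.41% to 4.58% in WT. The second entry of Nnt stood at 32.29 CPM in WT CLP replicate 4 and at 0, 69.28, 0 and 33.81 CPM under the label. Erythroid markers stood at 77.75 to 188.3 CPM in WT CLPs and at 209.8 to 460.2 CPM under the label, without overlap. The part of any of these in the CLP values was not tested.

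Whether the change differed between these 3 populations was tested by the interaction term of edgeR, without a limit on fold. It differed between CLPs and LT-HSCs for 8 of 316 members (2.76% of 22360 genes), between CLPs and ST-HSCs for 5 (3.21%) and between ST-HSCs and LT-HSCs for 0 (0.00447%). The members' shares, 2.53% and 1.58%, lie at or below these, so the counts are no result about the members as a set. The interaction comes from a fit of all libraries, which called far more genes in CLPs than the test of the 2 groups, as given above. That fit had no term for the mouse, so libraries of different populations that may share a mouse were treated as independent. With RLE scaling, DESeq2's size factors, the first count was 7, as Ung and Zpr1 were no longer called and H13 was, and the second remained the same 5 genes. Peli1 was called under both scalings, with log2 fold changes of 1.17 in LT-HSCs and -2.21 in CLPs.

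**Figure D5:**
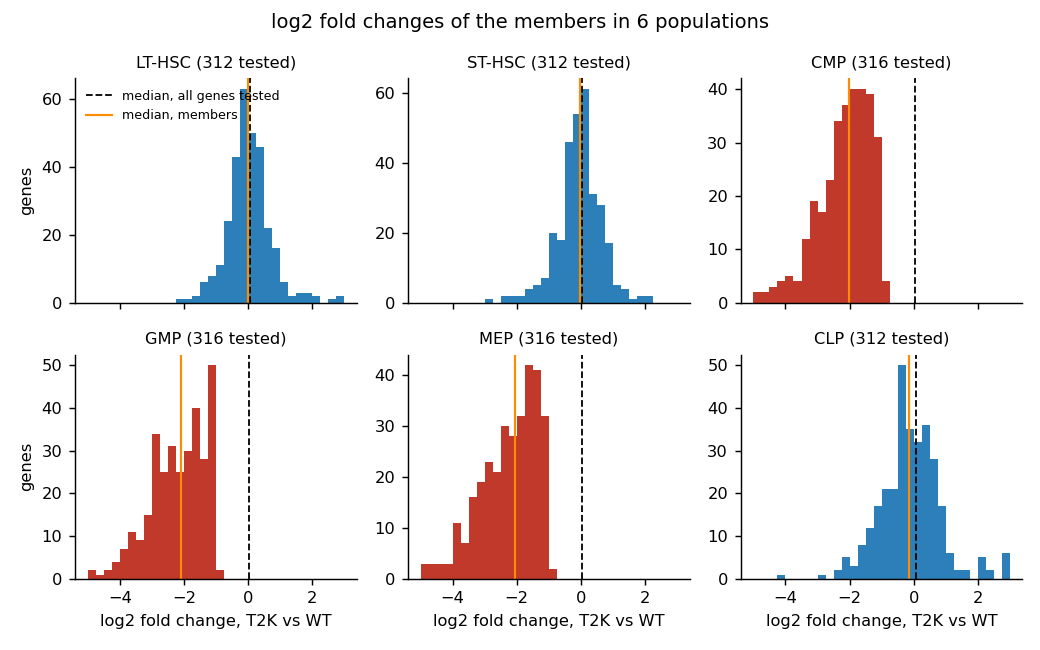
Number of members by edgeR log2 fold change of the label Tet2-/- (T2K) against WT in each population, with medians of members (solid) and of all genes tested (dashed); values beyond the axis are counted in its end bins. Red panels are populations the rule used, with medians of -2.03, -2.08 and -2.06, and blue panels those it did not use, with medians of -0.02, -0.03 and -0.15.

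In the second set, Tet2;Sting DKO was compared with Sting-/- in a separate set of LT-HSCs. Both labels name a loss of Sting. Mx1-Cre and poly(I:C) are named in the sources used here for Tet2;Sting DKO and not for the sequenced Sting-/- mice. The flow cytometry experiment mentioned above, with poly(I:C) for all mice, does not settle this for the sequenced ones. The Tet2 deletion, the Cre and the poly(I:C) therefore cannot be told apart in this comparison. Of the 316 members 286 were found by symbol, and 227 passed the filter on low counts. edgeR called 1 lower, Nfkbia, and 0 higher (0.159% of 9437 genes lower and 0% higher). Nfkbia held 1587, 1068 and 1115 CPM in Sting-/- and 67.64, 88.38 and 37.06 CPM in Tet2;Sting DKO libraries, and the log2 fold change was -4.22 with an SE of 0.42 (adjusted p = 0.0196 by edgeR). The WT libraries of the set held 801.7, 755.8 and 634.9 CPM. The call was lost, with 0 members called, when any 1 of the 6 libraries was left out. An exact permutation of 3 against 3 libraries cannot go below 0.10, the value that Nfkbia gave.

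At the unadjusted p 23 members were lower and 0 higher, against 5.18% and 1.83% of all genes. DESeq2 called 33 members lower and 2 higher, among 554 genes lower and 252 higher. Its share over all genes tested is not given, so nothing is read from these counts of members. Without overlap, 72 of 286 members were lower in Tet2;Sting DKO (25.2%, expressed genes 10.1%) and 5 higher (1.75%, expressed genes 6.95%). The median log2 fold change of tested members was -1.02, that of all genes 0.06. The median stayed between -1.49 and -0.88 with any 1 library left out. With a replicate block the median was -1.82, and 0 members were called. The quartiles of members were -2.43 and 0.16. Summed members held 7510 to 10628 CPM in Sting-/-, 3782 to 5106 CPM in Tet2;Sting DKO and 14787 to 20275 CPM in the WT libraries. Both groups labelled as lacking Sting thus lay below WT. Between 248 and 263 of the 286 members had a count in Sting-/- libraries and 193 to 224 in Tet2;Sting DKO libraries, while genes detected in all ran from 9382 to 10942 and from 9469 to 10119. Libraries of this set detected fewer genes than those of the first.

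The functional groups are read beside the 25.2% of members and 10.1% of expressed genes that were lower without overlap. Of the respiratory chain group 3 of 8 were lower, of mitochondrial import 4 of 11, of the early response genes 9 of 28 and of the endosome group 5 of 16, with 0 higher in each. Nfkbid held 111.4, 224.6 and 121.6 against 42.04, 34.57 and 37.67 CPM (log2 fold change -1.92, SE 0.55, edgeR adjusted p = 0.355), and Atf3 305.3, 94.53 and 139.3 against 2.812, 46.27 and 47.31 CPM (-2.46, SE 1.01, adjusted p = 0.572). Chromatin and transcription had 5 of 15. H1f0 held 91.67, 56.35 and 60.67 against 12.36, 36.48 and 13.78 CPM (-1.68, SE 0.98, adjusted p = 0.831), and Spi1 50.64, 33.51 and 25.27 against 0.1172, 0.8515 and 5.656 CPM (-4.02, SE 2.01, adjusted p = 0.726). In the endoplasmic reticulum group Ddost held 184.8, 80.07 and 55.6 against 32.78, 17.48 and 13.39 CPM (-2.26, SE 0.86, adjusted p = 0.506), and 5 of 25 were lower without overlap and 1 higher. In the splicing group 1 of 20 was lower and 2 were higher, with Srsf6 at 62.68, 65.35 and 87.24 CPM in Sting-/- and 96.49, 92.64 and 110 CPM in Tet2;Sting DKO (0.54, SE 0.53, adjusted p = 0.999). Lower without overlap were also 2 of 12 genes of mitochondrial dynamics and metabolism, 3 of 12 of the mitochondrial ribosome and tRNAs, 4 of 15 of cytosolic translation, 2 of 13 ubiquitin genes and 1 of 5 DNA repair genes, with 0 higher in each.

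Sting counts did not follow the labels of this set. They were 6333, 0 and 3835 in the Sting-/- libraries and 0, 14 and 1128 in the Tet2;Sting DKO libraries, so 3 of the 6 held 1128 or more. The WT libraries of the set held 1788, 1168 and 0 counts, so that a low count does not check a label either. Between the Sting-/- library and the 2 Tet2;Sting DKO libraries that held under 100 Sting counts, a choice made after seeing the counts, the median log2 fold change of members was -1.26. With 1 library in an arm this is a value without a test.

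Features that the rule did not use were compared with other expressed genes. Of 316 members 289 were protein-coding (91.5%, other expressed genes 89.8%). Among coding genes the median exon length was 3074 bases in members and 4584 in other expressed genes, with 7 against 10 exon blocks and a gene span of 14240 against 23670 bases. GC content of the longest transcript had a median of 51.1% against 48.76%. A single exon block was found in 5.88% of members and 2.5% of other expressed coding genes. Of expressed coding genes with up to 1500 bases of exon 5.51% were members, of those with 1500 to 3000 bases 5.71%, with 3000 to 5000 bases 3.36% and above 5000 bases 1.49%. By chromosome, members were 5.32% of expressed genes on chromosome 9 (29 of 545), 4.48% on chromosome 4, 4.4% on chromosome 8, 4.03% on chromosome 2 and 1.46% on chromosome X, the lowest.

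Of the 21 pseudogenes, 19 were annotated as processed copies, and only these were searched for a parent gene by sequence. Each had a match, the weakest being that of Gm12428 to Ywhag at 77.3% identity. Copies of Rps2, a ribosomal protein, made up 8 of the 19. Rps2 itself was no member: its ratio of the Tet2-/- label to WT was 0.251 in CMPs, 0.972 in GMPs and 0.139 in MEPs. Parents that were members themselves were Tmed2 (copy Gm10698), Tomm20 (Gm14494), Rwdd1 (Gm12693), Ap3s1 (Ap3s1-ps1 and Ap3s1-ps2), Atpaf1 (Gm14117) and Btg3 (Gm7334), with identities of 99.1% or more over the aligned bases. A read can fit a copy and its parent, so the values of these copies are uncertain.

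Start-site windows of RefSeq were found for 233 members, and motifs were searched on both strands. A GC box (GGGCGG) was present in 74.7% of members and 70.5% of 7302 other expressed genes, and a CCAAT box (CCAAT) in 38.6% and 44.3%. An ETS motif (CCGGAAG) was present in 29.2% and 24.5%, an NRF1 motif in 11.6% and 13.9%, an E-box (CACGTG) in 9.44% and 12.9%, a TATA box (TATAAA) in 6.01% and 7.75%, a cAMP response element (TGACGTCA) in 5.15% and 3.97%, an NF-kB site in 2.15% and 1.96%, and a YY1 motif in 1.29% and 2.4%. An endoplasmic reticulum stress element was present in 2 members, 0.858% against 0.123%. Over all 27025 windows the GC box was present in 38.2%.

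Of the remaining lists looked up, heat shock genes (18), glucocorticoid and circadian genes (19), snoRNA host genes (17), sex-linked genes (5), DNA methylation enzymes (8) and the marker lists of stem cells, CLPs, B cells, NK and T cells, erythroid cells, megakaryocytes, monocytes and neutrophils held 0 members. The list of C57BL/6 substrain genes (9) also held 0: the Nnt entry ENSMUSG00000025453 met the rule and was left out by name. Of this list 1 gene was called lower and 1 higher in each of CMPs, GMPs and MEPs. Mediator subunits held 2 of 30 (Med9 and Med30) and the Dusp phosphatases 4 of 24. The edgeR test called 0, 1 and 1 heat shock genes lower in CMPs, GMPs and MEPs, and 2, 2 and 2 glucocorticoid and circadian genes.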

How the data were processed

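The authors trimmed reads with Trim Galore, aligned them with HISAT2 to the mouse genome mm10 and deposited raw gene counts per library in 2 tables (55421 and 35976 genes); the counting program is not given in the sources used here. The second table has 2 broken lines, which were left out. Gene models were GENCODE on mm10 (55240 of 55421 identifiers) and start-site windows RefSeq, GRCm38.p6. CPM is a count divided by its column total times 1000000. Differences were tested with the quasi-likelihood test of edgeR 4.0.16 under R 4.3.3 on the 2 groups compared (TMM scaling, filterByExpr, prior count 2), with Benjamini-Hochberg adjustment over all genes tested, and called at 0.05 and 2-fold. Changes of CLPs, ST-HSCs and LT-HSCs were compared by interaction terms over all 46 libraries, without a term for the mouse. Single named members also got an exact permutation test on log2 CPM, two-sided. Processed pseudogenes were matched to parents with BLAST+ 2.17.0 (E value 1e-20). The tests were checked on simulated data.

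Members and gene lists were chosen with earlier results of these data known. Genes were named by these rules: the 10 highest WT levels, the 10 lowest ratios, members called, the 5 highest and 5 lowest log2 fold changes in LT-HSCs, ST-HSCs and CLPs, members on a list, and the 3 genes on either side of the ratio limit; others are said to be chosen later. Alternatives were another scaling, no filter, all libraries in one fit, a replicate block, DESeq2 1.42.0, the unadjusted p, other limits of the rule and leaving out each library.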

Additional observations from a re-analysis of the deposited data

Results flagged for a closer look

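In groups of 4 libraries, 1 library stood far from the other 3 for 9 of 220 groups examined, where chance gives about 1 in 20. These were the summed members in ST-HSC replicate 2 under the Tet2-/- label (9016 CPM, high), the summed immediate early genes in WT MEP replicate 2 (777 CPM, low), Atf3 in MEP replicate 3 under the Tet2-/- label (14.5 CPM, high) and in WT MEP replicate 3 (31 CPM), Serp1 in WT MEP replicate 5 (219.4 CPM, high), Eif3f in WT CLP replicate 4 (12.74 CPM, low), Srm in WT MEP replicate 2 (431.8 CPM, high), Iscu in CLP replicate 4 under the label (43.53 CPM, high) and Scand1 in ST-HSC replicate 4 under the label (0.046 CPM, where the other 3 were at 0).

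Some members lay above WT in every library labelled Tet2-/- of a population the rule did not use. They were 8 in LT-HSCs (Crtap, Malsu1, Mgat4b, Nenf, Osgin2, Peli1, Rbfa and Tsen34), 6 in ST-HSCs (B3galt6, Mgat4b, Sike1, Spi1, Tmem192 and Ydjc) and 10 in CLPs (Anp32b, Atp23, Atpaf1, Bri3bp, Cox5a, Gm14117, Hhex, Mtrf1l, Nbn and Pithd1). These are 2.53%, 1.9% and 3.16% of the members, near or below the 2.03%, 2.16% and 7.35% of expressed genes, and are thus no result about the members. The difference from CMPs, GMPs and MEPs was not tested, since the rule fixed the direction there.

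The change in CLPs differed from that in LT-HSCs for 8 members by the interaction term of edgeR (Peli1, Slc25a33, Serp1, Ung, Ap3s1-ps2, Dnajc3, Zpr1 and Mto1), which is 2.53% of the members where 2.76% of 22360 genes were called. With RLE scaling it was 7 members, without Ung and Zpr1 and with H13. The change in CLPs differed from that in ST-HSCs for 5 members (Atpaf1, Mrps30, Creld2, Tmem192 and Mtrf1l), which is 1.58% where 3.21% of genes were called, and the same 5 were called with RLE scaling. Both shares lie at or below those of all genes, so the calls are no result about the members as a set. Between ST-HSCs and LT-HSCs 0 members were called (0.00447% of genes). An unadjusted p under 0.05 was found for 18 of 316 members. The share of all genes at that limit was not counted, so nothing is read from the 18. B cell markers differed between labels in CLPs, and their part in these calls was not tested. The fit had no term for a mouse that populations may share.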

How the results depend on the processing

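Over all alternatives, the counts and medians kept their direction and side of the threshold 437 times, rose 61 times, fell 32 times and moved beyond their spread 6 times. The rule gave 155 genes at a ratio of 0.33, and 285 to 444 genes under its other limits, TMM scaling (294 of the 316 kept) and leaving out a library. Fitting all libraries at once called 14 genes lower in LT-HSCs, 17 genes and 1 member lower in ST-HSCs, and in CLPs 475 genes lower and 1002 higher, with 21 members lower and 8 higher. It called 273 genes lower and 12 higher with 163 members in CMPs, 214 and 5 with 152 members in GMPs, 405 lower with 171 members in MEPs, and 72 lower and 3 higher with 2 members in Tet2;Sting DKO. DESeq2 called 80 genes lower and 153 higher in LT-HSCs (members 2 and 3), and 133 and 199 in ST-HSCs (members 10 and 2). In CLPs it called 177 lower and 295 higher (7 members lower). It called 915 lower and 319 higher in CMPs, 891 and 180 in GMPs and 929 and 116 in MEPs. In Tet2;Sting DKO it called 554 lower and 252 higher (members 33 and 2, median -1.22). Shares over all genes tested are not given for DESeq2 or for the fit of all libraries, so nothing is read from their counts of members. The unadjusted p gave 176 genes lower and 371 higher in LT-HSCs (members 9 and 6), and 255 and 337 in ST-HSCs (13 and 2). In CLPs it gave 215 and 174 (members 18 and 1). It gave 989 and 303 in CMPs, 942 and 227 in GMPs and 973 and 112 in MEPs. In Tet2;Sting DKO it gave 489 and 173 (23 members lower). Without the filter on low counts 43 genes were lower and 4 higher in Tet2;Sting DKO, with 2 members. The libraries under 100 Sting counts alone, chosen after seeing the data, gave 0 genes, 0 members and a median of -1.26, but hold 1 library in an arm, so that these 0 calls say nothing of the members.

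Leaving out a library gave 19 to 42 members apart in LT-HSCs, 33 to 55 in ST-HSCs and 7 to 15 in CLPs (14 with TMM and 12 with RLE scaling). It gave 0 to 1 genes called higher in CLPs, and in Tet2;Sting DKO 0 genes and 0 members called lower with medians of -1.49 to -0.88. Dusp28 in ST-HSCs, at -2.47, ran from -3.24 to 0.68, the latter without WT replicate 3. Replicate numbers did not pair the 2 groups of a comparison, as deviations of their same-numbered libraries correlated at -0.043 to 0.061. Whether same-numbered libraries of different populations came from the same mouse was not examined. With a replicate block 2 genes were higher in LT-HSCs, 0 in CLPs, 46 in CMPs and 9 in MEPs, and Tet2;Sting DKO had 0 genes and 0 members called with a median of -1.82. Sac3d1 in ST-HSCs went from 1.59 to -0.04 with the replicate block. The cause of these shifts was not tested. The shallowest library held 26776517 counts, and precision also rests on the number of cells sorted, 200 by the labels, and the 3 or 4 libraries per group.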
